A study of Mus musculus with 6 samples.

Results

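The genes described here are the 10 FOS, JUN and small MAF genes of the mouse: Fos, Fosb, Fosl1 and Fosl2 (4 FOS genes), Jun, Junb and Jund (3 JUN genes), and Maff, Mafg and Mafk (3 small MAF genes). They were taken by gene name from the 20788 genes listed in at least 1 library, and all 10 were listed. RNA had been sequenced from Tyr-L and Tyr-H cells, 2 kinds of subclone of the B16 mouse melanoma line, with 3 libraries of each. B16 cells come from a skin tumour of pigment cells of the C57BL/6 strain. The labels give Tyr-L cells a low and Tyr-H cells a high tyrosinase activity (the enzyme that starts melanin synthesis from tyrosine), and both were grown untreated in low glucose DMEM with serum. The subclones came from a monoclonal assay and were sorted by their use of tyrosine, so a difference between them is a difference between selected clones, and how many clones each kind holds is not given in the sources used here. The study's figure captions call their results representative of 3 independent experiments, without saying how the libraries relate to these. It is not stated whether the 3 libraries of a kind came from separate cultures. The p-values therefore measure the spread between these libraries only, which may be technical.

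Proteins of the FOS, JUN and small MAF families are basic leucine zipper (bZIP) factors, which bind DNA only as pairs. JUN proteins pair with each other, with FOS proteins or with ATF proteins to form AP-1, a set of dimers that act at sites of the TGANTCA kind and respond to growth factors, stress and MAP kinases, whereas FOS proteins cannot pair with each other. Small MAF proteins carry no activation domain: paired with one another they repress, and paired with NRF2 or its relatives they act at antioxidant response elements. AP-1 and the melanocyte factor MITF are both known in melanoma, where AP-1 is often described in cells with lower MITF.

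Values are FPKM, fragments normalised for the length of the transcript and the fragments mapped in the library, as deposited. The depth is unknown as a count, and the lowest values, read as a single fragment, gave estimates of 19400000 to 22400000 fragments a library. On this scale the tested genes as a whole had a median of -0.15 (log2 fold change, Tyr-H minus Tyr-L), so the fold change of each tested member is also given relative to that value, by subtracting it. Defining markers of pigment cells were high in all 6 libraries (8 of 8 listed, summed level 7370 to 7690 FPKM across Tyr-L and 5470 to 5990 across Tyr-H). Of 6 immune markers 2 were listed, with a summed level of 0.189 to 0.378 FPKM across Tyr-L and 0.341 to 0.445 across Tyr-H, and Ptprc, Cd3e, Itgam and Adgre1 were at 0. Of 7 markers of fibroblasts, endothelium and keratinocytes 6 were listed, and their summed level was 0.579 to 0.605 FPKM across Tyr-L and 0.858 to 0.945 across Tyr-H, with Cdh5 at 0. The part of these low levels in the results below was not tested. Tyr, the gene of tyrosinase and close to what the clones were chosen for, had a mean of 10.0 ± 0.602 FPKM in Tyr-L against 21.3 ± 2.14 in Tyr-H (SD, n = 3).

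Most FOS, JUN and small MAF genes had more RNA in Tyr-H cells. Of the 8 members with a mean of at least 0.1 FPKM, which were tested with limma on log2(FPKM + 0.1), 2 passed both an adjusted p of at most 0.05 and a log2 fold change of at least 1. Both, Maff and Junb, were higher in Tyr-H. Of all 14336 genes tested, 2.96% were called higher and 5.78% lower (8.75% in all). A further 5 members (Fosl2, Jun, Jund, Mafg and Mafk) were higher past the adjusted p but not the fold threshold. Counts at the adjusted p alone, here and below, include the called genes. By that count 7 members were higher and 0 lower, against 17.9% of all genes higher and 39.9% lower. The exception was Fos, which was not past the adjusted p. It was the one member lower at an unadjusted p under 0.05. For each of the 8 tested members the groups did not overlap, 7 of them higher in Tyr-H and Fos lower, against 64.0% of all tested genes (20.2% higher and 43.8% lower). The median log2 fold change of the 8 was 0.78, and 4 of them (Fosl2, Junb, Jund and Maff) had at least 0.9, which 3.75% of all tested genes reached. The fold change of Maff was the largest of the small MAF genes and that of Fosl2 the larger of the 2 FOS genes tested. With 1 library left out the called members were 1 (Maff, without Tyr-H library 3) to 4 (without Tyr-L library 2). The RNA came from whole cultures, so more cells with a transcript and more of it per cell cannot be told apart.

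**Figure D1:**
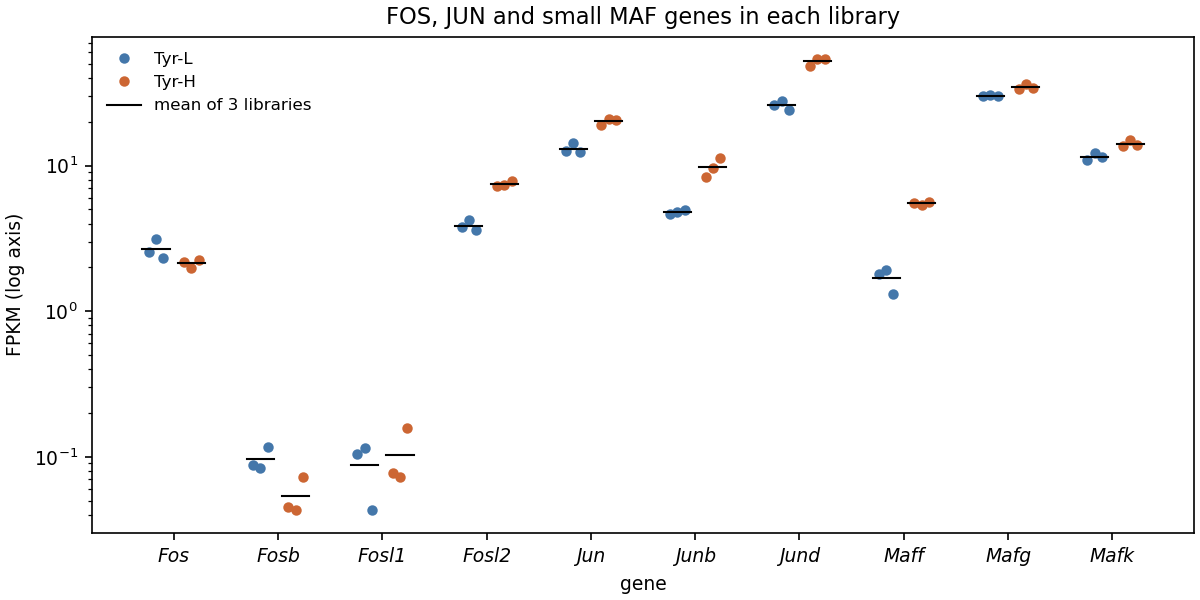
FPKM (log axis) of the 10 FOS, JUN and small MAF genes in each of the 3 Tyr-L (blue) and 3 Tyr-H (orange) libraries, with the mean of each group as a line. For 7 genes every Tyr-H point sits above every Tyr-L point, for Fos and Fosb below, and for Fosl1 the groups overlap.

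The 250 bases before the annotated start of transcription are printed for 4 of the genes, taken from RefSeq on GRCm38.p6 and read 5′ to 3′ on the strand of the gene. Jun and Maff are shown because the same 8 letters stand at the same distance from a start in both. Junb is shown as the other called gene, and Fos as the one tested gene with no rise. Maff has 3 annotated starts, and starts 2 and 3, numbered along the strand, are shown. Capitals mark matches to the motifs searched, which are listed further on.
Maff start 2 (chr15:79347270-79347519, + strand): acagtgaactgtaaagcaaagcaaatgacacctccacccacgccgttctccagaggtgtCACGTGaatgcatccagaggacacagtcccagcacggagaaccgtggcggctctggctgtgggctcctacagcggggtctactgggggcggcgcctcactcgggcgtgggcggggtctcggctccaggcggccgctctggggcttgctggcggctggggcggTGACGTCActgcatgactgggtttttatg
Maff start 3 (chr15:79348152-79348401, + strand): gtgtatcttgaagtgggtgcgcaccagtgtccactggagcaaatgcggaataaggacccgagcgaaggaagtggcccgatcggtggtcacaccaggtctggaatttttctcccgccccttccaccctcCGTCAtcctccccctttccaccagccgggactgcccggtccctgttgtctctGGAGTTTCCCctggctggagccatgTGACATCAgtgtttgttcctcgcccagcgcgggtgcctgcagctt
Jun (chr4:95052223-95052472, - strand): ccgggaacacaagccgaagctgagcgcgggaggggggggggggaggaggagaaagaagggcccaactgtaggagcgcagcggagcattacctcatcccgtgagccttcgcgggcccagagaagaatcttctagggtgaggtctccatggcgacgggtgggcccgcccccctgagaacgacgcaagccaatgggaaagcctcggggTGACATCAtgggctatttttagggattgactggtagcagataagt
Junb (chr8:84978749-84978998, - strand): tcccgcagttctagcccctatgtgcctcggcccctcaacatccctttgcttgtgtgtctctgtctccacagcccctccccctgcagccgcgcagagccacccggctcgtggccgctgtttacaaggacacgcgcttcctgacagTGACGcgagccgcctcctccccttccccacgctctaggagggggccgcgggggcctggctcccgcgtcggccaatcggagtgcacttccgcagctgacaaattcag
Fos (chr12:85473640-85473889, + strand): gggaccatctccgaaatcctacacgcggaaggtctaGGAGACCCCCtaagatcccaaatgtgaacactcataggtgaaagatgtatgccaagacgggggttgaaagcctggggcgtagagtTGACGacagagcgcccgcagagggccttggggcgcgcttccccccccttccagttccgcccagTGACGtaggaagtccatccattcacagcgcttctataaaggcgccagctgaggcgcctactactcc

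Maff (ENSMUSG00000042622, GRCm38 chromosome 15, 79346621 to 79359076, + strand) encodes the small MAF protein known to be induced by stress and inflammatory signals. It read 1.8, 1.92 and 1.31 FPKM across the Tyr-L libraries and 5.53, 5.39 and 5.65 FPKM across the Tyr-H libraries. The lowest Tyr-H library stood far above the highest Tyr-L library, and the 3 Tyr-H values were nearly equal. The means were 1.67 ± 0.323 and 5.53 ± 0.126 FPKM (SD, n = 3), a 3.3-fold ratio. The log2 fold change was 1.68 (SE 0.14, 95% interval 1.37 to 1.99) with a limma adjusted p of 8.9e-06, or 1.84 relative to the median of all genes. Maff was called under each of 15 alternative settings, with 1.29 to 1.87. The values rest on an estimated 49.7 to 237 fragments a library. The nearest tested genes on either side differed little: Pla2g6, 18.2 kb before it, had a log2 fold change of -0.06 (SE 0.06), and Tmem184b, 1.61 kb after it, had 0.00 (SE 0.05). These neighbours were named after their values were seen. Over the nearest tested gene on each side of all 10 members the log2 fold changes ran from -0.92 (Mysm1 beside Jun) to 0.80 (Jdp2 beside Fos), and none was called.

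Mafg and Mafk encode the small MAF proteins that many cell types make at a steady level. Mafg (ENSMUSG00000051510, chromosome 11, 120625117 to 120633600, - strand) read 29.9, 30.5 and 30.0 FPKM across Tyr-L libraries 1 to 3 and 33.7, 36.2 and 34.3 across Tyr-H libraries 1 to 3. Mafk (ENSMUSG00000018143, chromosome 5, 139791513 to 139802653, + strand) read 11.0, 12.2 and 11.4 FPKM across Tyr-L libraries 1 to 3 and 13.7, 14.9 and 13.8 across Tyr-H libraries 1 to 3. For both genes the groups did not overlap, yet the step between them was small beside that of Maff. Mafg had a log2 fold change of 0.20 (SE 0.04, adjusted p 0.0018 by limma) and Mafk of 0.29 (SE 0.06, adjusted p 0.0021), or 0.36 and 0.45 relative to the median of all genes. The Mafg adjusted p became 0.068 when each library was rescaled to the same total, where its log2 fold change was 0.11. The locus of Mafg overlaps Sirt7 on the same strand (11.4 to 15.0 FPKM). That of Mafk overlaps Tmem184a on the opposite strand (0.0553 to 0.294 FPKM). The deposited locus of Mafk runs on to 139826885 and reaches Psmg3, which lies 20.9 kb after the annotated gene. Psmg3 had a mean of 32.4 FPKM in Tyr-L and 35.8 in Tyr-H. Some reads of these genes may therefore not be assigned with certainty.

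Jund (ENSMUSG00000071076, chromosome 8, 70698949 to 70700616, + strand) encodes the JUN protein usually found in resting cells. Its FPKM was 26.2, 27.8 and 24.1 in Tyr-L and 48.6, 53.7 and 53.7 in Tyr-H. Every Tyr-H library was well above every Tyr-L library, and in Tyr-H no other member had a higher level. The means were 26.0 ± 1.88 and 52.0 ± 2.95 FPKM (SD, n = 3), and the log2 fold change was 0.998 (SE 0.06, 95% interval 0.86 to 1.13) with an adjusted p of 1.8e-06 by limma, or 1.15 relative to the median of all genes. This lay just under the fold threshold, and Jund was called in 6 of 15 alternatives, among them those without Tyr-L library 1 (1.00), Tyr-L library 2 (1.05) or Tyr-H library 1 (1.05). Gm11175, an antisense gene within the Jund locus, had at most 0.182 FPKM.

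Junb (ENSMUSG00000052837, chromosome 8, 84974484 to 84978718, - strand) encodes a JUN protein that can restrain c-JUN and is induced as an immediate early gene. It read 4.63, 4.77 and 4.92 FPKM across Tyr-L libraries 1 to 3 and 8.38, 9.65 and 11.3 across Tyr-H libraries 1 to 3. The Tyr-L libraries were close together while the Tyr-H libraries spread, with library 3 the highest. The means were 4.77 ± 0.144 and 9.78 ± 1.47 FPKM (SD, n = 3). Its log2 fold change of 1.01 (SE 0.10, 95% interval 0.78 to 1.24, adjusted p 3.2e-05 by limma) was just past the fold threshold, and was 1.16 relative to the median of all genes. It fell short of it without Tyr-H library 3 (0.90) or Tyr-L library 1 (0.99), so Junb and Jund lie on different sides of the threshold with nearly the same fold change. The annotated gene overlaps Prdx2 on the opposite strand (85.5 to 94.3 FPKM), but the deposited Junb locus, which starts at 84976910, does not reach it.

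Jun (ENSMUSG00000052684, chromosome 4, 95049034 to 95052222, - strand) encodes c-JUN, the partner through which many FOS proteins bind DNA. Its FPKM was 12.6, 14.2 and 12.3 in Tyr-L and 19.1, 21.0 and 20.4 in Tyr-H. The groups did not overlap, and the difference was smaller than for Junb and Jund. The log2 fold change was 0.63 (SE 0.06, 95% interval 0.48 to 0.77, adjusted p 3.7e-05 by limma), or 0.78 relative to the median of all genes. It was 0.53 to 0.78 over the 15 alternatives, never past the fold threshold. The deposited locus of Jun runs on to 95167318 and takes in Junos on the opposite strand, which had at most 0.144 FPKM.

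Fosl2 (ENSMUSG00000029135, chromosome 5, 32135801 to 32157842, + strand) encodes FRA-2, a FOS protein without the strong activation domain of c-FOS. It read 3.76, 4.24 and 3.6 FPKM across Tyr-L libraries 1 to 3 and 7.26, 7.37 and 7.86 across Tyr-H libraries 1 to 3. All Tyr-H libraries lay above all Tyr-L libraries, with a narrow spread in each group. The means were 3.87 ± 0.332 and 7.49 ± 0.32 FPKM (SD, n = 3), and the log2 fold change was 0.94 (SE 0.08, 95% interval 0.75 to 1.12, adjusted p 1.4e-05 by limma), or 1.09 relative to the median of all genes. Without Tyr-L library 2 it was 1.00 and called.

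Fos (ENSMUSG00000021250, chromosome 12, 85473890 to 85477273, + strand) encodes c-FOS, the classical immediate early gene product. It read 2.55, 3.14 and 2.33 FPKM across Tyr-L libraries 1 to 3 and 2.19, 1.99 and 2.24 across Tyr-H libraries 1 to 3. The Tyr-H libraries were all a little lower, and the nearest values of the groups, 2.33 and 2.24, almost met. The log2 fold change was -0.30 (SE 0.13, 95% interval -0.59 to -0.01, adjusted p 0.073 by limma), and -0.15 relative to the median of all genes. Over the alternatives it was -0.40 to -0.11, with an adjusted p of 0.027 to 0.51. Fosl2 therefore differed in one direction at an adjusted p under the threshold while the smaller difference of Fos in the other direction was not past it.

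Fosb (ENSMUSG00000003545, chromosome 7, 19302696 to 19310051, - strand) and Fosl1 (ENSMUSG00000024912, chromosome 19, 5447547 to 5455946, + strand), which encode FOSB and FRA-1, were close to the limit of detection and under the filter for the limma fit. Fosb read 0.0882, 0.084 and 0.117 FPKM across Tyr-L libraries 1 to 3 and 0.0453, 0.0429 and 0.0723 across Tyr-H libraries 1 to 3, an estimated 3.56 to 8.59 fragments a library. The Tyr-H libraries were the lower ones, without overlap (exact permutation p 0.1, two-sided, the smallest that 3 against 3 allows). Fosl1 read 0.105, 0.115 and 0.0432 FPKM across Tyr-L libraries 1 to 3 and 0.0775, 0.0728 and 0.158 across Tyr-H libraries 1 to 3, and 1 library was at or under 3 fragments. The groups overlapped (exact permutation p 0.7, two-sided), and a difference in Fosl1 was not detectable at this depth. Its locus overlaps Ccdc85b on the opposite strand, with 2.7 to 4.13 FPKM.

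**Figure D2:**
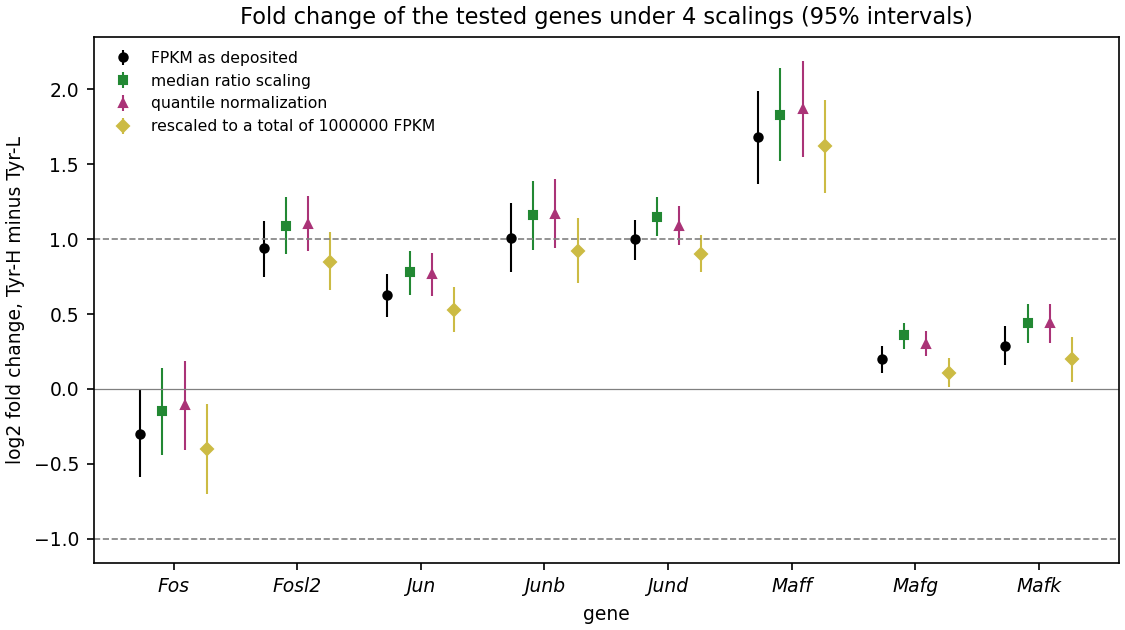
Log2 fold change (Tyr-H minus Tyr-L) of the 8 tested members with 95% intervals, on FPKM as deposited (black) and under 3 other scalings between libraries. Dashed lines mark the fold threshold of 1 in both directions. Maff lies past it under all 4 scalings, Fosl2, Junb and Jund lie on either side of it, and the sign of no member turns.

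The scaling between libraries moved these values together. Median ratio scaling brought the median of all genes from -0.15 to -0.01 and raised the fold changes to 1.09 for Fosl2, 1.16 for Junb, 1.15 for Jund and 1.83 for Maff, so that 4 members were called, and quantile normalization called the same 4. On these scales Fos had -0.15 and -0.11. Rescaling each library to a total of 1000000 FPKM moved the median of all genes to -0.25 and left only Maff called. The split of all called genes moved as well, from 33.9% higher as deposited to 48.4% under median ratio scaling, 55.2% under quantile normalization and 26.2% after rescaling.

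The order of the levels, which FPKM allows to be compared per length, changed at the top and at the lower end. In Tyr-L the order of the means was Mafg, Jund, Jun, Mafk, Junb, Fosl2, Fos, Maff, Fosb and Fosl1, and neighbours overlapped only for the last pair. In Tyr-H it was Jund, Mafg, Jun, Mafk, Junb, Fosl2, Maff, Fos, Fosl1 and Fosb, with no overlap between neighbours. The last pair almost met, at 0.0728 FPKM for Fosl1 and 0.0723 for Fosb, and their order is limited by depth. Jund thus stood above Mafg, and Maff above Fos, in Tyr-H and below it in Tyr-L. These orders are descriptions over 3 libraries a group.

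The make-up of each family, which a single scaling factor for each library leaves as it is, differed too. Quantile normalization, which also moves the ratios within a library, was not applied to these shares. Fosl2 made up 57.8%, 56.0% and 59.1% of the summed FPKM of the 4 FOS genes in Tyr-L and 75.8%, 77.7% and 76.1% in Tyr-H, a difference of 18.9 percentage points. Fos made up 39.2%, 41.4% and 38.3% in Tyr-L and 22.9%, 21.0% and 21.7% in Tyr-H. The FOS RNA of both kinds of cell was therefore nearly all Fosl2 and Fos, with Fosl2 the larger part in every library. Within a library Fosl2 had 1.47, 1.35 and 1.54 times the FPKM of Fos in Tyr-L and 3.32, 3.7 and 3.51 times in Tyr-H.

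In the JUN family Jund was the largest part throughout, with 59.3% ± 1.0 in Tyr-L and 63.5% ± 0.51 in Tyr-H (SD, n = 3). Jun took 29.8% ± 0.678 and 24.6% ± 0.685, and the groups did not overlap for either gene. Junb took 10.9% and 11.9%, with overlapping groups. The JUN shares thus moved by far less than those of the FOS family, while the JUN sum moved more: it was 43.8 ± 2.79 FPKM in Tyr-L against 82.0 ± 5.09 in Tyr-H, a 1.87-fold ratio, against 6.73 ± 0.763 and 9.79 ± 0.466 FPKM (1.46-fold) for the FOS sum.

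In the small MAF family Maff made up 4.2%, 4.3% and 3.06% in Tyr-L and 10.5%, 9.54% and 10.5% in Tyr-H, a difference of 6.31 percentage points. Mafg took 69.5% ± 1.02 in Tyr-L and 63.8% ± 0.248 in Tyr-H (SD, n = 3), and the shares of Mafk, 26.6% and 26.0%, overlapped. Mafg still had 6.08, 6.71 and 6.08 times the FPKM of Maff in the Tyr-H libraries, after 16.6, 15.9 and 22.9 times in the Tyr-L libraries. The small MAF sum was 43.3 ± 1.09 FPKM in Tyr-L against 54.4 ± 1.88 in Tyr-H (1.26-fold).

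**Figure D3:**
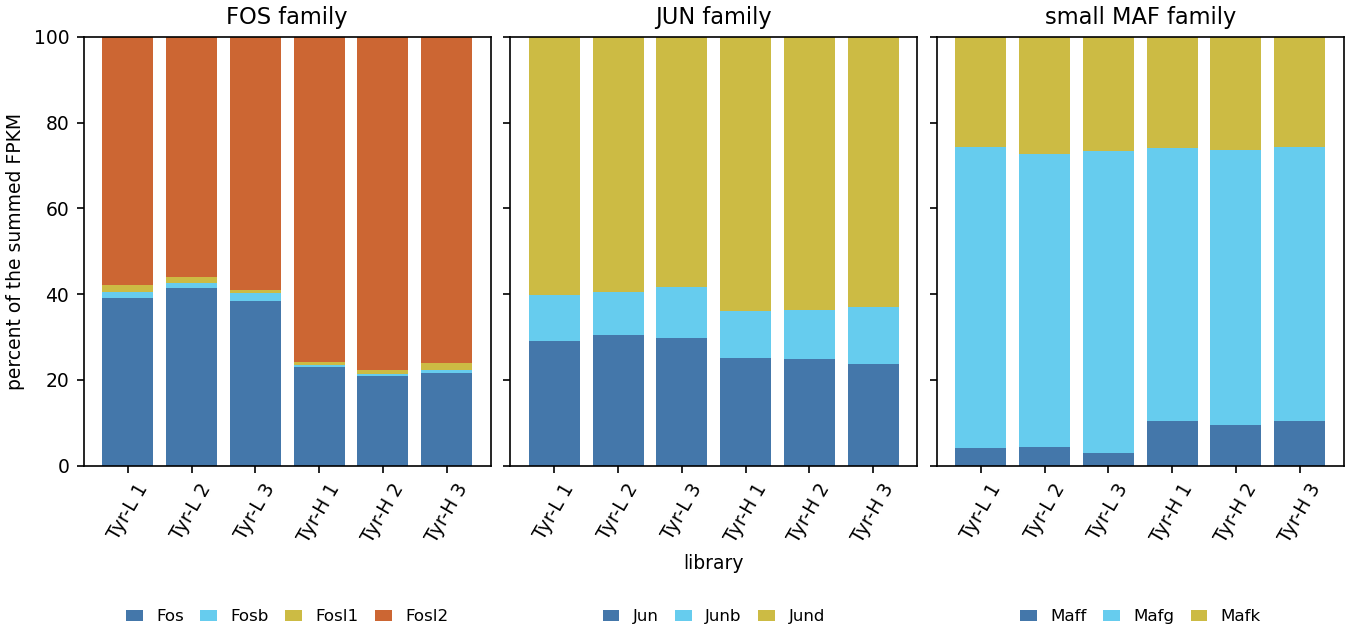
Share of each gene in the summed FPKM of its family (percent, stacked) in the 6 libraries, for the FOS, JUN and small MAF families. The Fosl2 share is 56.0 to 59.1% in the Tyr-L bars and 75.8 to 77.7% in the Tyr-H bars, and the Maff share 3.06 to 4.3% and 9.54 to 10.5%.

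Of the 10 bZIP partners of JUN and FOS outside the families, 9 were tested, 1 was called higher and none lower. At the adjusted p alone 4 were higher (Atf3, Jdp2, Crem and Batf) and 3 lower (Atf2, Creb1 and Atf1), and the median log2 fold change was 0.01. Over all tested genes 2.96% were called higher and 5.78% lower, and 17.9% were higher and 39.9% lower at the adjusted p. The called gene was Atf3, a stress-induced factor that pairs with JUN proteins. It read 4.89, 6.85 and 5.39 FPKM across Tyr-L libraries 1 to 3 and 33.4, 38.1 and 38.4 across Tyr-H libraries 1 to 3, groups far apart, with a log2 fold change of 2.67 (SE 0.11, adjusted p 3e-07 by limma). Within a library Atf3 had 0.388, 0.482 and 0.438 times the FPKM of Jun in Tyr-L and 1.74, 1.81 and 1.89 times in Tyr-H, so the order of these partners was turned around.

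The other partners named here were chosen after their values were seen. Jdp2, which encodes a repressor that pairs with JUN, read 11.1, 13.5 and 10.9 FPKM across Tyr-L libraries 1 to 3 and 19.3, 21.3 and 21.1 across Tyr-H libraries 1 to 3, a log2 fold change of 0.80 (SE 0.08, adjusted p 4.2e-05 by limma). Jdp2 is the next tested gene after Fos on chromosome 12, at 122 kb, and Batf lies a further 46.8 kb on. The direct neighbours Fos and Jdp2 therefore differed in opposite directions, that of Fos not past the adjusted p. Crem, a cAMP-responsive factor, had a log2 fold change of 0.79 (SE 0.08, adjusted p 2.9e-05). Atf2, the partner of JUN that stress kinases phosphorylate, had -0.53 (SE 0.06, adjusted p 9.1e-05), and Atf7, its close relative, had 0.01 as deposited and 0.16 after median ratio scaling.

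Among the 6 partners of small MAF proteins (the CNC and BACH factors) 4 were tested, and none was called in either direction by limma. Nfe2l3, under the filter for the fit, averaged 0.122 FPKM in Tyr-L against 0.0205 in Tyr-H without overlap (exact permutation p 0.1, two-sided), and after rescaling each library to a total of 1000000 FPKM it entered the fit, through its Tyr-L values alone, and was the 1 called gene of the list, a call on which no weight rests. At the adjusted p alone, as deposited, 1 of the 4 was higher and 2 were lower (17.9% and 39.9% of all tested genes), and these and Nfe2l3 were named after their values were seen. Nfe2l1, which encodes a membrane-bound activator of proteasome genes, read 54.5, 60.6 and 61.2 FPKM across Tyr-L libraries 1 to 3 and 94.8, 111 and 106 across Tyr-H libraries 1 to 3, a log2 fold change of 0.82 (SE 0.06, adjusted p 7e-06). Nfe2l2, which encodes the oxidative stress factor NRF2, differed the other way, with a mean of 53.5 ± 1.26 FPKM in Tyr-L against 44.7 ± 0.909 in Tyr-H and a log2 fold change of -0.26 (SE 0.04, adjusted p 0.00021), or -0.10 relative to the median of all genes. Bach1, which encodes a haem-sensitive repressor at the same sites, had -0.45 (SE 0.08, adjusted p 0.00081). Large MAF genes were low: of 4, 3 were listed and 2 tested, and neither Maf nor Mafa was past the adjusted p (Maf was lower at an unadjusted p under 0.05 in limma).

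**Figure D4:**
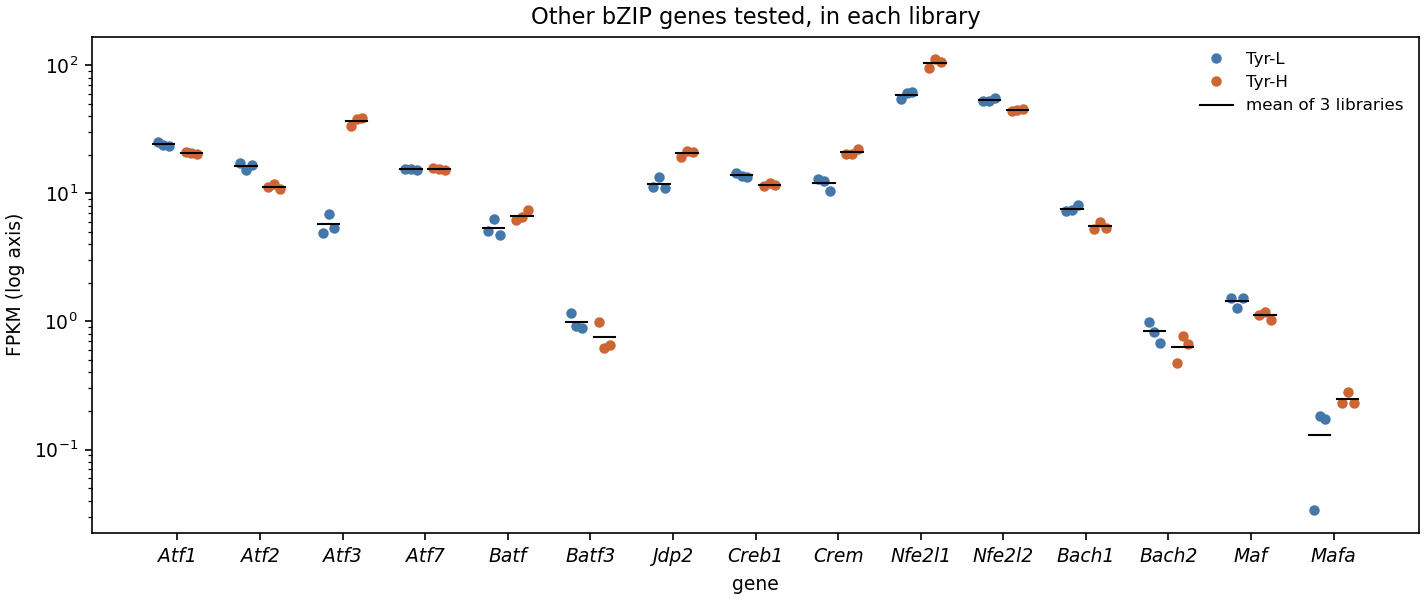
FPKM (log axis) of the tested bZIP partners of JUN and FOS, the CNC and BACH partners of small MAF and the large MAF genes, in each of the 3 Tyr-L (blue) and 3 Tyr-H (orange) libraries with group means as lines (Mafa at its measured values). Atf3 stands 6.42 times higher in the Tyr-H mean, while Atf2, Nfe2l2 and Bach1 sit lower.

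Genes upstream of AP-1 were described by 3 lists. Of 15 genes of the MAP kinase cascades 14 were tested, 0 were called higher and 1 lower by limma (3 and 6 at the adjusted p alone), with a median log2 fold change of -0.06. Both counts are close to the shares over all genes, of which 8.75% were called and 39.9% were lower at the adjusted p. The called one was Map2k6, a kinase that activates p38, with a mean of 4.90 ± 0.608 FPKM in Tyr-L against 1.86 ± 0.33 in Tyr-H (SD, n = 3) and a log2 fold change of -1.36 (SE 0.14, adjusted p 4.5e-05). The 6 genes of SRF and its ternary complex partners, which drive Fos after growth signals, held 1 higher and 3 lower at the adjusted p alone (median -0.26, against 17.9% and 39.9% of all tested genes) and no called gene. The 7 genes for turnover and silencing of JUN and FOS proteins likewise held none that was called, and 1 higher and 5 lower at the adjusted p alone (median -0.37), beside the same shares of all genes. Fbxw7, a ubiquitin ligase subunit for JUN named after its value was seen, had a mean of 7.77 ± 0.166 FPKM in Tyr-L against 4.44 ± 0.209 in Tyr-H and a log2 fold change of -0.79 (SE 0.07, adjusted p 1.3e-05).

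Other immediate early genes, which respond to the same signals as Fos, were split. Of 21 in the list 18 were tested, 3 called higher and 2 lower, with 8 higher and 5 lower at the adjusted p alone and a median log2 fold change of 0.16. Of all tested genes 2.96% were called higher and 5.78% lower, with 17.9% and 39.9% at the adjusted p alone. Among those with at least 1 FPKM on average, Klf4, which encodes a zinc finger factor, rose by 1.23 (SE 0.14) and Btg2, which encodes an antiproliferative protein, by 1.01 (SE 0.08) on the log2 scale. Without Tyr-L library 1, Tyr-L library 3 or Tyr-H library 2, Btg2 had 0.99 and was not called, and without Tyr-L library 3 the called genes of the list were 3 in place of 5. With a pseudocount of 1 FPKM 1 of the list was called. Nr4a3, an orphan nuclear receptor gene, had a mean of 8.39 ± 1.36 FPKM in Tyr-L against 2.08 ± 0.254 in Tyr-H, a log2 fold change of -1.95 (SE 0.13, adjusted p 2.9e-06 by limma), and Klf10 had -1.08 (SE 0.10). Klf10 was not called under median ratio scaling (-0.93), quantile normalization (-0.91) or a pseudocount of 1 FPKM (-0.84). The remaining called gene, Dusp5, was under that level. Egr1, whose induction usually accompanies that of Fos and which is named for that reason, had a log2 fold change of 0.16 with overlapping groups.

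Of 23 genes known as AP-1 targets 20 were listed and 17 tested, and 4 were called higher and none lower (10 and 4 at the adjusted p alone, median 0.17). The shares over all tested genes were 2.96% called higher and 5.78% called lower (17.9% and 39.9% at the adjusted p alone). Lif, which encodes a cytokine of the interleukin 6 family, had a mean of 0.734 ± 0.143 FPKM in Tyr-L against 3.54 ± 0.198 in Tyr-H, a log2 fold change of 2.14 (SE 0.15). Tgfb1, which encodes the growth factor TGF-beta 1, had 0.613 ± 0.159 and 2.85 ± 0.223 FPKM, a log2 fold change of 2.07 (SE 0.18). The other called genes, Il11 and Il6, were below 1 FPKM on average, and Il6, with 0.046 FPKM in Tyr-L against 0.254 in Tyr-H, passed the filter on low values only through Tyr-H, so no weight rests on its call. With a minimum mean of 1 FPKM 2 of the list were called. The following targets were named after their values were seen. Of the proteases of the matrix, Mmp3, Mmp9 and Mmp10 had no more than 0.103 FPKM in any library, while Plau, the urokinase gene, had a log2 fold change of 0.82 (SE 0.16, adjusted p 0.0021 by limma). Plaur, the gene of its receptor, had 0.67 (SE 0.09, adjusted p 0.00014). Cd44 and Spp1, which encode an adhesion receptor and a secreted matrix protein, had log2 fold changes of -0.61 and -0.87.

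Of 19 genes known as targets of NRF2 with small MAF, 18 were listed and tested, with 3 called higher and 1 lower (8 and 6 at the adjusted p alone, median 0.06). Beside these stand 2.96% and 5.78% of all tested genes called, and 17.9% and 39.9% at the adjusted p alone. Hmox1, the haem oxygenase gene that BACH1 represses, had a mean of 20.1 ± 0.216 FPKM in Tyr-L against 78.6 ± 1.97 in Tyr-H, a log2 fold change of 1.96 (SE 0.04, adjusted p 1.1e-08 by limma). Slc7a11, the cystine transporter gene, rose by 1.75 (SE 0.07) and Osgin1, an oxidative stress response gene, by 1.07 (SE 0.05) on the log2 scale. Gsta4, a glutathione transferase gene, had -1.80 (SE 0.24). Nqo1 and Gclm, the targets most often used to read NRF2 activity and named for that reason, were not past the threshold: Nqo1 had -0.08 as deposited and 0.07 after median ratio scaling, and Gclm had 0.10. The list therefore did not move one way. Over all 9 pathway lists, 95 of 111 genes were tested and 15 called, 11 higher and 4 lower, with a median of 0.00. Of all tested genes 8.75% were called, 2.96% higher and 5.78% lower.

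**Figure D5:**
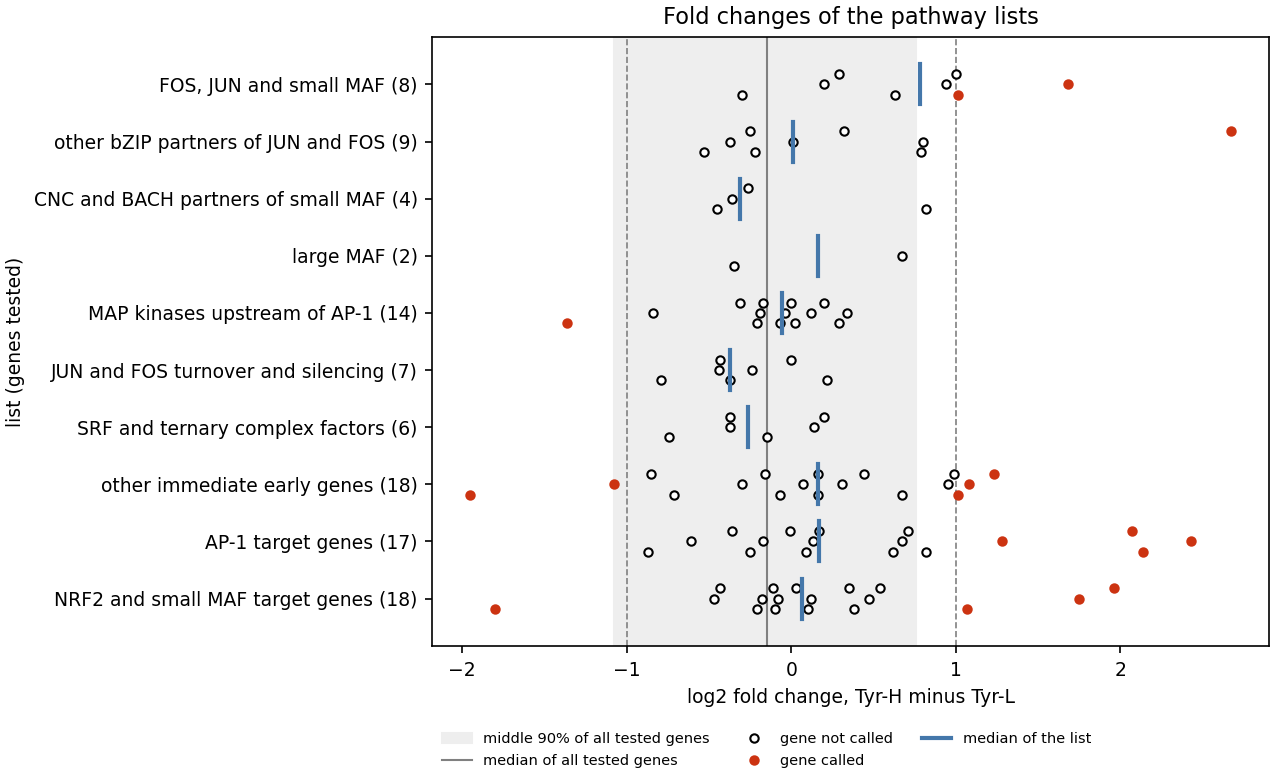
Log2 fold change (Tyr-H minus Tyr-L) of every tested gene of the 3 families and of 9 pathway lists, filled where called, with the median of each list (blue bar) beside the median and the middle 90% of all tested genes (grey). The median of the members is 0.78 and those of the pathway lists lie between -0.37 and 0.17.

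RefSeq gave 11 windows of 250 bases before a start for 9 of the 10 genes, all but Fosl1. Between 47.6% and 68.8% of their letters were G or C, against a median of 52.4% over all 32851 windows. In all, 8 motifs were searched on both strands: the AP-1 site TGANTCA, the CRE TGACGTCA, the variant TGACATCA, the core TGACG, which the CRE contains, the antioxidant response element core TGACNNNGC, the E-box CACGTG, and, by name alone, the CArG box that SRF binds and the NF-kappaB site. The Jun window and that of Maff start 3 held TGACATCA at the same place, with its first letter 45 bases before the start. Of all windows 2.93% held these letters. The window of Maff start 2 held TGACGTCA 29 bases before the start, which 1.55% of all windows held, and CACGTG 191 bases before it. The core TGACG was found in 7 of the 11 windows and in 17.8% of all windows. The set of all windows was not matched to the member windows for G and C content, and Maff gave 3 of the 11. In Fos TGACG stood 129 and 66 bases before the start, in Junb 106 bases and in Mafk 41 bases before it. The E-box was in 3 windows, that of Maff start 2 and those of Mafg and Mafk (6.02% of all), and TGACNNNGC also in 3 (10.2% of all), that of Maff start 1 and again those of Mafg and Mafk. No member window held TGANTCA (6.75% of all) or the CArG box (1.47%), and 4 held the NF-kappaB site (7.25%), among them that of Fos. Sites further than 250 bases before a start were not searched, so these absences hold for the windows only. The Jund start in RefSeq lies 1210 bases before the deposited locus, and its window held none of the 8. A match describes these letters only, and which of its starts Maff used was not measured.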

How the data were processed

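RNA from 3 Tyr-L and 3 Tyr-H libraries had been made with a VAHTS mRNA-seq v2 kit and sequenced as paired reads of 150 bp. The submitters' processing notes name Trimmomatic, HISAT2, HISAT and the build GRCm38.p6. The quantifier, annotation and strand setting are not given in the sources used here. The authors deposited FPKM values for each library. A gene not listed in a library was taken as 0, and no deposited value is 0.

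Groups and replicate numbers came from the labels. The members and gene lists were chosen with earlier results of these data known. The genes named beside the members are, for each list, those called that averaged 1 FPKM or more, at most 3 in each direction, genes that overlap a member, and Tyr. Others are marked in the text.

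Expression was compared with limma 3.58.1 in R 4.3.3 on log2(FPKM + 0.1). The 14336 genes that averaged 0.1 FPKM or more entered the fit (1 coefficient, eBayes with its trend option, p-values adjusted over all of them by Benjamini-Hochberg). The pseudocount understates the change of low genes. Called genes had an adjusted p no larger than 0.05 and a log2 fold change no smaller than 1 in size, the thresholds of the study's methods. The exact permutation test used FPKM and was two-sided. The procedure was tested on simulated data, where the planted changes were well past the fold threshold, so calls near it were not examined. Fragments a library were estimated from genes with a single annotated transcript of at least 1500 bases. Their most common low value, within a range set beforehand, was read as 1 fragment. The fragments of each member and the floor of 3 fragments used this depth and the longest annotated transcript. These estimates are approximate and cover counting error only. Other steps used Python 3.11.15 with pandas 2.3.3 and scipy 1.17.1. Coordinates, overlaps and neighbours came from GENCODE M21 (GRCm38) and count from 1. Promoter windows came from RefSeq (GRCm38.p6).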

Additional observations from a re-analysis of the deposited data

How the results depend on the processing

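Maff was called, and Fos, Jun, Mafg and Mafk were not, under each of 15 alternatives that kept the fold threshold, and no value of a member changed sign. The others lay near the fold threshold. Fosl2 reached 1.09 under median ratio scaling and 1.10 under quantile normalization (0.89 to 1.00 with 1 library left out). Junb had 0.89 with a pseudocount of 1 FPKM and 0.92 after rescaling to a total of 1000000 FPKM (0.90 to 1.11 with 1 library left out). Jund had 1.00 with a pseudocount of 0.01 FPKM, 1.15 under median ratio scaling and 1.09 under quantile normalization (0.94 to 1.05 with 1 library left out). The members called, all higher, were 1 with a pseudocount of 1 FPKM and after rescaling, 4 under median ratio scaling and quantile normalization, 7 with no fold threshold and 1 to 4 with 1 library left out: 4 without Tyr-L library 2, and Maff alone without Tyr-H library 3. The cause of the scaling shift was not tested.

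Of all genes, 1254 were called (425 higher, 829 lower). With a pseudocount of 1 FPKM they were 388 (185 higher, 203 lower), with a minimum mean of 1 FPKM, where 11026 genes were tested, 640 (247 higher, 393 lower), with no fold threshold 8292 (2570 higher, 5722 lower), and 1149 to 1279 with 1 library left out. The lower ones were 1287 after rescaling and 496 under quantile normalization. Of the pathway lists, 7 genes were called higher with a pseudocount of 1 FPKM, and 70 were called with no fold threshold (36 higher, 34 lower). Of 17 named genes of the lists 12 kept their call throughout, and Klf4, Btg2, Klf10, Osgin1 and Tyr lost it in 11 of 255 values together.

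The replicate numbers did not pair the libraries: deviations of libraries with the same number correlated at 0.022, 0.013 and -0.083 over genes. With the number as a replicate block 1258 genes were called (430 higher, 828 lower), and of the members again Junb and Maff.

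Fosb and Fosl1, at an estimated 1.56 to 8.59 fragments a library, are limited by depth.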

Other observations

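A further group of bZIP genes, the C/EBP and PAR factors, was looked at after seeing the data because some of its members pair with FOS, JUN or ATF3. Of 9 genes in the list 8 were listed and tested, and 4 were called higher and none lower, with a median log2 fold change of 1.06 (2.96% and 5.78% of all tested genes were called higher and lower). Ddit3, which encodes the stress factor CHOP, read 21.2, 26.0 and 21.0 FPKM across Tyr-L libraries 1 to 3 and 83.1, 115 and 125 across Tyr-H libraries 1 to 3, a log2 fold change of 2.22 (SE 0.14). Cebpb, which encodes C/EBP-beta, had a mean of 4.87 ± 0.665 FPKM in Tyr-L against 17.9 ± 3.05 in Tyr-H (1.86, SE 0.13). Nfil3, a repressor gene of the PAR sites, rose by 1.37 (SE 0.12) on the log2 scale, and Cebpg, named as the remaining called gene, by 1.24. At the adjusted p alone 5 genes were higher and 3 lower, beside 17.9% and 39.9% of all tested genes. The lower ones were Dbp, Hlf and Tef (-0.59), the PAR activators linked to the circadian clock. The list was chosen on these libraries, so its count is a description.

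Mitf, the melanocyte master regulator, had a mean of 90.5 ± 6.64 FPKM in Tyr-L against 25.0 ± 1.56 in Tyr-H, a log2 fold change of -1.85, and was called lower. Of the 8 melanocyte markers 1 was called lower (Mitf) and 1 higher (Tyr). At the adjusted p alone 6 were lower and 2 higher, with a median of -0.41. Of all tested genes, with a median of -0.15, 5.78% were called lower and 2.96% higher, and 39.9% and 17.9% were so at the adjusted p alone. Among the markers Pmel had -0.73, Dct -0.64, Sox10 -0.57, Mlana -0.24 and Tyrp1 -0.23, and Pax3 had 0.13.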
